A study of Homo sapiens with 18 samples.

Results

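The 42 genes described here belong to the integrated stress response, the transcriptional programme around ATF4. They were taken from a fixed list of symbols: transcription factors, effectors, secreted factors, enzymes of amino acid and one-carbon synthesis, amino acid transporters and tRNA synthetases. All 42 were among the 35579 genes with a matched transcript, and all 42 were among the 16786 that passed the filter on low counts. Messenger RNA was measured by polyA RNA-seq in U2OS, a human osteosarcoma cell line, with 3 libraries in each of 6 groups. Of these groups, 4 were untreated lines with an integrated construct. The first carried mCherry alone as the control, and mCherry was fused to EWS-FLI1 in another, to EWS-FLI1mut in the third and to EWS(YS37)-FLI1 in the last. In Ewing sarcoma the EWS-FLI1 fusion protein acts as a transcription factor, and it joins the EWS low-complexity domain to the DNA-binding part of FLI1. The other 2 groups were mCherry-EWS-FLI1 cells given 7.5 µM LY2835219, also known as abemaciclib, which inhibits CDK4 and CDK6, kinases that drive entry into S phase. The 2 groups were harvested after 6 h and 24 h. These times stand in the titles, the characteristics and the series design, while the treatment protocol among the labels names different times. Every line carries the mCherry tag, and the labels do not say what the mut change is, whether the lines are clonal, or whether untreated cells received a vehicle. The libraries of a group are called biological replicates, but the labels name 1 line per construct, so the p values do not cover variation between separately made lines.

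When amino acids run short, the endoplasmic reticulum is overloaded or another stress activates an eIF2 kinase, phosphorylation of eIF2 lowers general translation and raises translation of the ATF4 messenger RNA. ATF4 protein then binds DNA as a dimer with C/EBP family members and activates genes that import and make amino acids and charge tRNAs, along with feedback genes such as PPP1R15A, whose product directs the phosphatase that resets eIF2. ATF4 activity is thus set largely by translation and protein stability, and a transcript table measures neither. The members were read in 6 arms: 8 stress transcription factors, 5 stress effectors and feedback genes, 4 secreted and receptor genes, 9 genes of amino acid and one-carbon synthesis, 7 amino acid transporters, and 9 genes of tRNA charging and export.

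Promoter sequence is shown for 6 members that carry the letters of the C/EBP-ATF response element, TGATGNAA, because the element is the DNA sequence through which the ATF4 dimer is known to act, and for PPP1R15A, which carries the cyclic AMP response element letters TGACGTCA. The windows are those of RefSeq (GRCh38.p14), 250 bases before to 50 bases after each start site, searched on both strands. A window was found for 35 of the 42 members, and none for NUPR1, VEGFA, PSPH, SHMT2, ALDH1L2, PYCR1 and SLC7A11. TGATGNAA was present in 13 of the 35 (37.1%), against 4.46% of 27305 genes and 3.62% of 35116 windows. The members were listed as genes of this response, and the number of windows per gene was not matched. These shares are therefore a description and no test. Of the stress transcription factors, ATF3, CEBPG and JDP2 held TGATGNAA. CHAC1, ASNS, SLC3A2, SLC7A1 and SLC1A5 held it as well. The tRNA synthetase genes AARS, GARS, NARS, CARS and MARS held it, 5 of the 9 genes of that arm. TGACGTCA was present in PPP1R15A alone among the 35, against 2.25% of genes, and shares no window position with the other motif. The stretches lie at ASNS chr7:97872439-97872506 on the minus strand, CHAC1 chr15:40953232-40953299 on the plus strand, CEBPG chr19:33374041-33374108 on the plus strand, SLC1A5 chr19:46784874-46784941 on the minus strand, GARS chr7:30594815-30594882 on the plus strand, AARS chr16:70289656-70289723 on the minus strand and PPP1R15A chr19:48872333-48872400 on the plus strand. Each is written from 5′ to 3′ on the strand of its gene, and capitals mark the 8 letters, which read TTGCATCA or TTTCATCA where the match is on the other strand.
ASNS: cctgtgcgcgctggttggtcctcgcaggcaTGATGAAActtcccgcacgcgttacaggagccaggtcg
CHAC1: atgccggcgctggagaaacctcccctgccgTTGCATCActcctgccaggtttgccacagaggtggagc
CEBPG: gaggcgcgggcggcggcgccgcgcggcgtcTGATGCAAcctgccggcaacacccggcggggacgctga
SLC1A5: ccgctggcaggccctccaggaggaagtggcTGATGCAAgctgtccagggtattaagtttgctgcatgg
GARS: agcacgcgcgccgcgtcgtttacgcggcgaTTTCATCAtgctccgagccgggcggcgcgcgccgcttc
AARS: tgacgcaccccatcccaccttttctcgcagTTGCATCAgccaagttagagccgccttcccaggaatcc
PPP1R15A: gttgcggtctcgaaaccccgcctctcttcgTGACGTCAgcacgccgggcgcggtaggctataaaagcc

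Total estimated counts ran from 16261034 to 20270637 per library. FLI1 reads, which report the constructs, averaged 0.547 ± 0.563 CPM (TMM-scaled counts relative to library size; ± SD, n = 3) in mCherry cells, 247 ± 16.3 in EWS-FLI1, 642 ± 19.9 in EWS-FLI1mut and 1019 ± 44.0 in EWS(YS37)-FLI1. In LY2835219-treated cells they averaged 406 ± 21.8 at 6 h and 236 ± 10.4 at 24 h, so the groups also differ in construct messenger RNA. Of 7 osteoblast and bone matrix markers, 4 passed the filter; RUNX2 and COL1A1 were well expressed, whereas SP7, BGLAP and IBSP were at or near 0. The summed level of 5 markers of blood, epithelial and endothelial cells ran from 7.09 to 13.2 TPM (a length-normalised level) over all libraries, with CD3E at 0 throughout. In bulk RNA, fewer cells of a kind and less RNA per cell cannot be told apart.

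**Figure D1:**
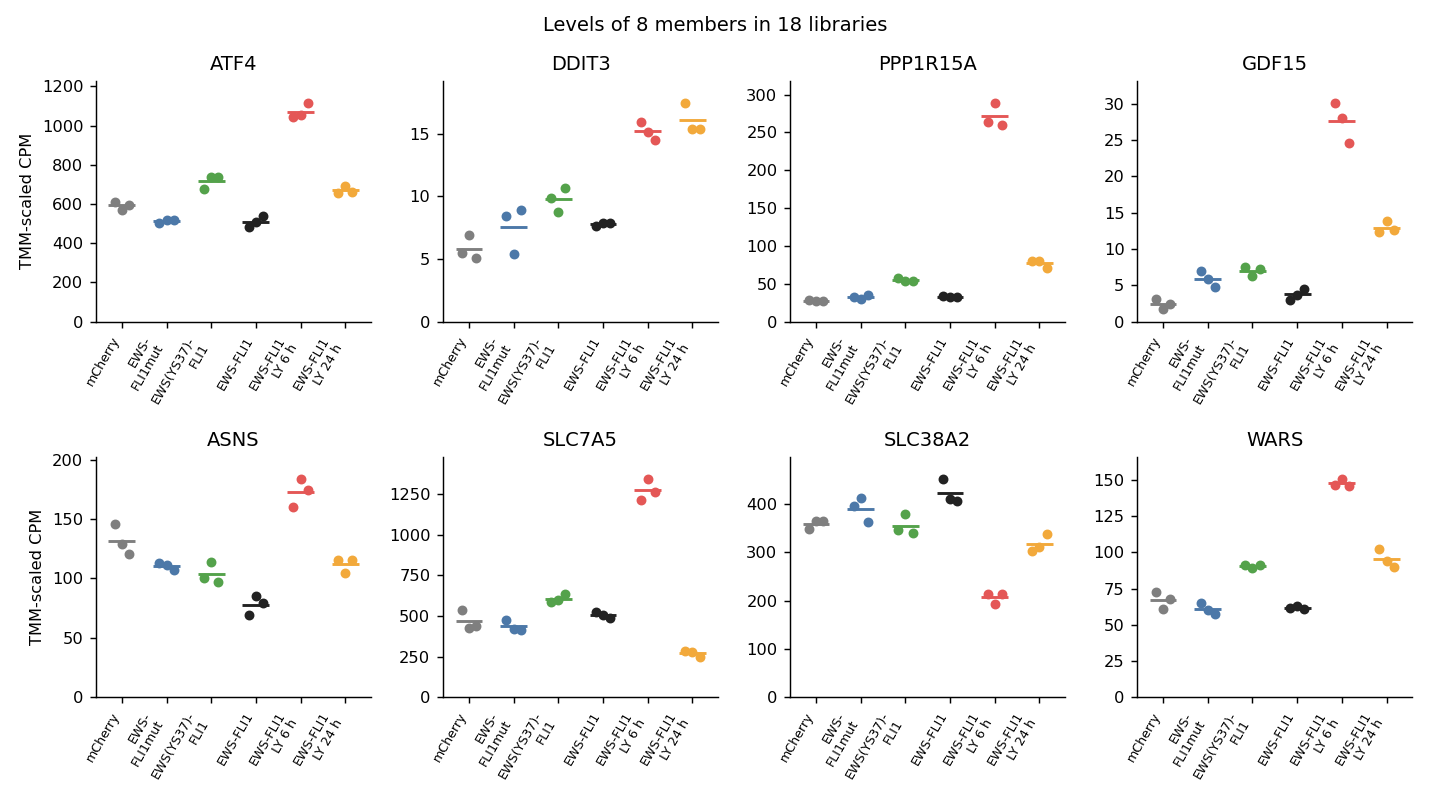
Levels of 8 members in TMM-scaled CPM (vertical axes, linear and starting at 0) in the 6 groups (horizontal axes); points are single libraries and short lines are means of 3. ATF4, PPP1R15A, GDF15, ASNS and WARS were highest at 6 h of LY2835219 in all 3 libraries, whereas SLC38A2 was lowest there. SLC7A5 was highest at 6 h and lowest at 24 h.

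Per length, ATF4 was the most abundant member in untreated EWS-FLI1 cells, at 573 ± 15.1 TPM (SD, n = 3). It was followed by PHGDH, the first enzyme of serine synthesis, at 286 ± 9.30 TPM, and PYCR1, a proline synthesis enzyme, at 242 ± 31.3 TPM. ALDH1L2 at 1.84 ± 0.521 TPM and STC2 at 0.435 ± 0.0380 TPM were the lowest. Summed over the arm, the transcription factors held 800.1 ± 6.65 TPM, the synthesis genes 1065 ± 45.2, the tRNA charging genes 871 ± 15.95, the transporters 677 ± 49.6, the effectors 124 ± 13.1 and the secreted and receptor genes 53.6 ± 3.92. ATF4 alone supplied most of the transcription factor sum.

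Most of the 42 members were higher after 6 h of LY2835219, and at 24 h fewer members were higher and more were lower. At 6 h, 30 of the 42 members were higher than in untreated EWS-FLI1 cells and 5 were lower, with a median log2 fold change of 0.70 against -0.02 over all genes; 64.9% of all 16786 genes tested were called in that comparison, 31.6% higher and 33.3% lower. At 24 h, 23 were higher and 11 lower, with a median of 0.25 against 0.03; among all genes tested 48% were called, 23.3% higher and 24.6% lower. Set directly against 6 h, 28 members were lower at 24 h and 9 higher, with a median of -0.62 against 0.05; among all genes tested 62.9% were called, 32.6% higher and 30.3% lower. Both treated groups are set against the same 3 untreated libraries. Calls are edgeR quasi-likelihood tests at a Benjamini-Hochberg adjusted p under 0.05 over all genes tested, and log2 fold changes carry their standard error. Where a call is given as lost without a library, the fit held fewer libraries. Such a call can be lost with little change in the log2 fold change. With library size alone and no scaling factor the median of all genes at 6 h moved to -0.27 and the members split into 25 higher and 11 lower; limma on log2(TPM + 1) gave 23 higher and 10 lower. The mitochondrial share of counts was 4.80% ± 0.277 in untreated cells, 6.14% ± 0.146 at 6 h and 6.16% ± 0.380 at 24 h (SD, n = 3). The summed TPM of 8 replication-dependent histone genes, listed as a sign of RNA quality, ran from 1369 to 1668 untreated. It ran from 1286 to 1293 at 6 h and from 778 to 782 at 24 h. At 6 h HIST2H2BE (-2.04 ± 0.09) and HIST1H2AC (-1.05 ± 0.08) were called lower, and HIST1H1C (0.25 ± 0.07) and HIST1H2BD (0.45 ± 0.11) higher. The others were not called, and HIST1H3B and HIST1H4C averaged 0.715 and 0.335 CPM untreated. The genes were listed as tied to DNA replication, and LY2835219 acts on entry into S phase. A change in RNA quality and one in the cell cycle therefore cannot be told apart from this sum. Of the 4 osteoblast markers tested, RUNX2 was called lower at 6 h (-0.61 ± 0.08) and higher at 24 h (0.25 ± 0.07), ALPL higher at both times (1.30 ± 0.20 and 0.75 ± 0.20) and SPP1 higher at 24 h (2.04 ± 0.22). COL1A1 was not called at either time (0.17 ± 0.09 and -0.13 ± 0.09). The summed level of the 7 ran from 821 to 893 TPM untreated, 662 to 813 at 6 h and 716 to 831 at 24 h. TPM sums carry no TMM scaling factor and are not on the scale of these log2 fold changes. Among the 5 markers of other cell types, the endothelial PECAM1 was called higher at 6 h (0.99 ± 0.29) and 24 h (0.91 ± 0.29) and the epithelial EPCAM lower at 24 h (-0.56 ± 0.21), and their summed level ran from 7.09 to 9.13 TPM untreated, 8.72 to 13.2 at 6 h and 8.48 to 11.5 at 24 h. The part of any of these in the members' changes was not tested.

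**Figure D2:**
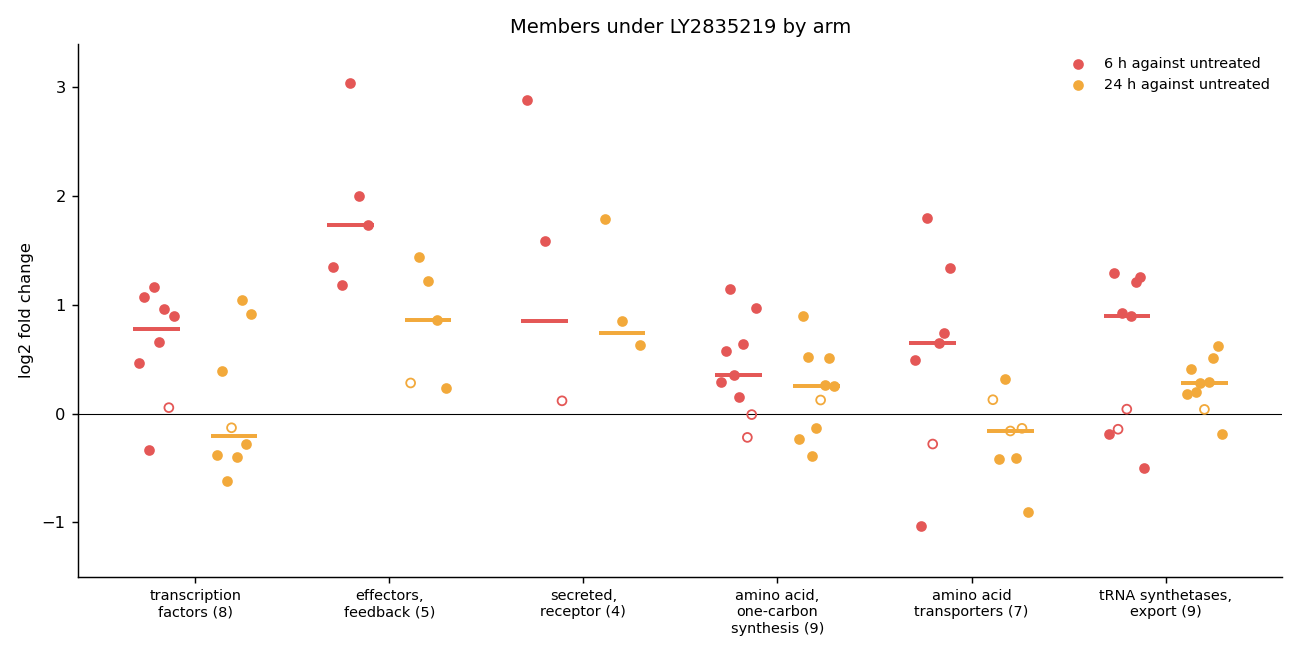
Log2 fold change of each member (points, vertical axis) by arm (horizontal axis) after 6 h and 24 h of LY2835219 against untreated EWS-FLI1 cells. Filled points are called, open points are not, and short horizontal lines are arm medians. STC2 is left out of the points, but counted in its arm's median. The effector arm has the highest median at both times, 1.74 and 0.86, while the transcription factor and transporter medians fall below 0 at 24 h.

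Among the transcription factors, 6 of 8 were higher at 6 h and 1 was lower. ATF4 (GENCODE 29, hg38, chr22:39519695-39522685) stood at 483, 508 and 539.5 CPM in the untreated libraries, at 1044, 1056 and 1116 at 6 h and at 657, 691 and 659 at 24 h. The treated groups lay above the untreated one at both times without overlap. Its log2 fold change was 1.07 ± 0.05 at 6 h (adjusted p = 1.33e-14) and 0.39 ± 0.05 at 24 h (adjusted p = 8.42e-07). CEBPB, a C/EBP family member, rose at 6 h and not at 24 h: it read 60.05, 64.3 and 59.3 CPM untreated, 135, 143 and 133 at 6 h and 56.9, 62.9 and 48.1 at 24 h. Its log2 fold change was 1.16 ± 0.10 at 6 h (adjusted p = 3.26e-10), and at 24 h it was -0.13 ± 0.10 and not called. CEBPG, a dimer partner of ATF4, rose by 0.66 ± 0.09 at 6 h and was -0.40 ± 0.10 at 24 h, below the untreated level.

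DDIT3, which encodes CHOP, and NUPR1, a small stress-induced nuclear protein, were called higher at both times, with values at 6 h and 24 h that overlapped. DDIT3 (chr12:57516588-57521737) read 7.67, 7.87 and 7.84 CPM untreated, 15.96, 15.2 and 14.5 at 6 h and 17.5, 15.4 and 15.4 at 24 h. Both treated groups lay above all untreated libraries; the log2 fold change was 0.96 ± 0.16 at 6 h, 1.04 ± 0.16 at 24 h (adjusted p = 5.87e-06) and 0.08 ± 0.15 between the 2 times. NUPR1 read 34.3, 37.5 and 35.2 CPM untreated, 67.5, 67.0 and 65.3 at 6 h and 66.3, 71.5 and 64.3 at 24 h, with log2 fold changes of 0.90 ± 0.07 and 0.92 ± 0.07. ATF3, a stress-induced repressor, differed by 0.46 ± 0.14 at 6 h and -0.38 ± 0.14 at 24 h, both called; the 6 h call was lost with transcript length offsets (0.43) and the 24 h call without untreated EWS-FLI1 replicate 2 or 3 (-0.36 and -0.40) or 24 h replicate 1 or 3 (-0.36 and -0.35). ATF5 fell at both times, by 0.33 ± 0.09 and 0.62 ± 0.09 on the log2 scale, and the 6 h fall was not called with length offsets (-0.21). JDP2, an AP-1 repressor, was 0.05 ± 0.09 at 6 h and -0.28 ± 0.09 at 24 h, of which the second was called, though not without 24 h replicate 3 (-0.18). ATF5 lies along its whole length opposite another annotated gene. DDIT3 shares 982 bases with MARS on the opposite strand and 2769 bases with a readthrough gene on its own. Other members overlap genes too, among them MARS with ARHGAP9 (13370 bases, opposite strand) and PYCR1 with MYADML2 (2768 bases, same strand). These overlaps are of whole gene spans, introns included, and the overlap of spliced transcripts on opposite strands was not measured. The strand of the libraries is not given in the sources used here, so reads from bases that such transcripts share may not be told apart. In ATF4, 53.8% of the 31-base stretches of the main transcript also occur in other genes, mostly ATF4 pseudogenes. That share was 22.9% in XPOT, 19.1% in ASNS, 17.4% in MTHFD2, 17.0% in PSPH, 15.6% in PSAT1 and 8.56% in DDIT3, so their counts depend on how reads were divided among copies.

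The effector arm had the highest median at both times, with STC2 counted in the secreted and receptor arm. All 5 were called higher at 6 h, with a median of 1.74, and 4 of 5 at 24 h, with a median of 0.86. PPP1R15A (chr19:48872392-48876057), which encodes GADD34, the regulatory subunit that lets a phosphatase act on eIF2, read 33.6, 32.4 and 33.1 CPM untreated, 264, 289 and 260.4 at 6 h and 80.1, 80.7 and 70.3 at 24 h. The log2 fold change was 3.04 ± 0.07 at 6 h (adjusted p = 1.03e-19) and 1.22 ± 0.07 at 24 h (adjusted p = 1.45e-12), the highest among the members at 6 h. SESN2, a leucine-sensing inhibitor of mTORC1, read 13.9, 15.7 and 15.4 CPM untreated, 61.9, 62.3 and 56.3 at 6 h and 27.1, 28.2 and 26.4 at 24 h. Its log2 fold changes were 2.01 ± 0.09 and 0.86 ± 0.09, with no overlap among the 3 groups. DDIT4, which encodes the mTORC1 inhibitor REDD1, stayed up at 24 h: it read 62.7, 92.97 and 85.4 CPM untreated, 175, 189 and 183 at 6 h and 208, 245 and 201 at 24 h. The log2 fold change was 1.19 ± 0.10 at 6 h and 1.44 ± 0.10 at 24 h, and the difference between the times was 0.25 ± 0.10 (adjusted p = 0.0314), no longer called without 6 h replicate 1 (0.22), 6 h replicate 3 (0.25) or 24 h replicate 2 (0.15). TRIB3, a pseudokinase that restrains ATF4, rose by 1.74 ± 0.08 at 6 h and by 0.24 ± 0.09 at 24 h. The later value lost its call without untreated EWS-FLI1 replicate 2 (0.21) or 3 (0.18), or 24 h replicate 2 (0.18) or 3 (0.21). CHAC1, which breaks down glutathione, rose by 1.35 ± 0.18 at 6 h and was 0.28 ± 0.18 and not called at 24 h.

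Of the secreted and receptor genes, GDF15, a circulating stress cytokine, and VEGFA, the angiogenic growth factor, were called higher at both times. GDF15 (chr19:18374731-18389176) read 3.02, 3.67 and 4.51 CPM untreated, 30.1, 28.0 and 24.5 at 6 h and 12.3, 13.8 and 12.6 at 24 h. The 3 groups did not overlap, and the log2 fold change was 2.88 ± 0.18 at 6 h (adjusted p = 1.6e-12) and 1.79 ± 0.18 at 24 h (adjusted p = 1.77e-08). VEGFA read 52.8, 51.7 and 65.2 CPM untreated, 166, 175 and 167 at 6 h and 99.55, 96.2 and 110.0 at 24 h, with log2 fold changes of 1.58 ± 0.07 and 0.85 ± 0.07. VLDLR, a lipoprotein receptor, was 0.12 ± 0.10 and not called at 6 h, and was higher at 24 h by 0.63 ± 0.09. STC2, a secreted glycoprotein, was barely expressed: 13, 10 and 5 estimated counts in the untreated libraries, 0, 0 and 1 at 6 h, and 3, 8 and 5 at 24 h. It was called lower at 6 h (adjusted p = 0.000545) and not with limma on log2(TPM + 1), and no fold is given at these counts. The median of this arm counts STC2. With STC2 set aside, the middle value is that of VEGFA, 1.58 at 6 h and 0.85 at 24 h. At 24 h that lies close to the median of the effector arm.

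ASNS, which makes asparagine, and SHMT2, which feeds serine carbon into mitochondrial folate, rose at both times, whereas the other 7 genes ranged from -0.22 to 0.64 at 6 h; 7 of 9 were called higher at 6 h with a median of 0.36, and at 24 h 5 were higher and 3 lower. ASNS (chr7:97852118-97872542) read 69.2, 85.6 and 78.9 CPM untreated, 160.4, 183.9 and 174 at 6 h and 115, 104.9 and 115 at 24 h. Its log2 fold change was 1.15 ± 0.08 at 6 h (adjusted p = 1.21e-11) and 0.52 ± 0.08 at 24 h (adjusted p = 9.99e-06), without overlap with the untreated libraries at either time. SHMT2 read 156, 166 and 164 CPM untreated, 314, 326 and 316 at 6 h and 194, 201 and 185 at 24 h, with log2 fold changes of 0.98 ± 0.05 and 0.26 ± 0.05. ALDH1L2, a mitochondrial folate dehydrogenase, was called higher at both times: it read 8.13, 10.7 and 7.47 CPM untreated, 11.3, 13.7 and 14.1 at 6 h and 17.0, 15.0 and 17.1 at 24 h. The log2 fold changes were 0.57 ± 0.17 and 0.90 ± 0.17, and their difference, 0.33 ± 0.16, was not called. ALDH1L2 lies opposite another gene over 54414 bases.

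In the serine branch, PSAT1 rose by 0.64 ± 0.07 at 6 h and was 0.12 ± 0.08 and not called at 24 h. PSPH, the last step, was -0.22 ± 0.10 and not called at 6 h and 0.27 ± 0.10 at 24 h, a call lost without untreated EWS-FLI1 replicate 1 (0.15) or 24 h replicate 2 or 3 (0.22 and 0.24). PHGDH was 0.16 ± 0.05 at 6 h and -0.14 ± 0.05 at 24 h; the first was called with TMM and turned to -0.089 without scaling factors and to -0.28 with limma on log2(TPM + 1). It was not called without untreated EWS-FLI1 replicate 1 (0.11), nor the 24 h value without untreated EWS-FLI1 replicate 2 (-0.13) or 24 h replicate 1 (-0.11). MTHFD2, the mitochondrial folate enzyme, was 0.36 ± 0.07 at 6 h, -0.060 with limma on log2(TPM + 1), and fell by 0.39 ± 0.07 at 24 h. The proline genes differed from each other: PYCR1 was -0.01 ± 0.05 at 6 h and rose by 0.52 ± 0.05 at 24 h, whereas ALDH18A1 was 0.29 ± 0.07 at 6 h, -0.024 with limma on log2(TPM + 1), and -0.24 ± 0.07 at 24 h.

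In the transporter arm SLC7A5 and SLC7A1 were higher than in untreated cells at 6 h and lower at 24 h, and SLC38A2 was lower at both times. SLC7A5 and SLC3A2 encode the light and heavy chains of one leucine transporter. SLC7A5 (chr16:87830023-87869488) read 526, 505 and 485 CPM untreated, 1217, 1346 and 1266 at 6 h and 282, 278 and 249 at 24 h. All 6 h libraries were above and all 24 h libraries below every untreated library. Its log2 fold change was 1.34 ± 0.07 at 6 h (adjusted p = 1.86e-13), -0.91 ± 0.07 at 24 h (adjusted p = 5.37e-10) and -2.24 ± 0.08 between the times. SLC3A2 read 217, 208 and 213 CPM untreated, 747, 753 and 719 at 6 h and 277, 276 and 243 at 24 h, so it returned towards the untreated level without passing below it. Its log2 fold changes were 1.80 ± 0.06 and 0.32 ± 0.06. SLC38A2 (chr12:46358189-46372867), which encodes the sodium-coupled neutral amino acid transporter SNAT2, read 453, 409.7 and 407 CPM untreated, 214, 193 and 214 at 6 h and 304, 310.4 and 338 at 24 h. It was lowest at 6 h, with log2 fold changes of -1.03 ± 0.06 (adjusted p = 9.67e-13) and -0.42 ± 0.06 (adjusted p = 5.75e-06). SLC7A1, the cationic amino acid transporter, was 0.65 ± 0.07 at 6 h and -0.41 ± 0.07 at 24 h, both called. SLC7A11, the cystine-glutamate antiporter, rose by 0.74 ± 0.08 at 6 h and was -0.14 ± 0.09 and not called at 24 h, and the glutamine transporter SLC1A5 did likewise (0.49 ± 0.06 and 0.13 ± 0.06). The glycine transporter SLC6A9 was not called at either time. Of the arm, 5 of 7 were higher and 1 lower at 6 h, and 1 higher and 3 lower at 24 h.

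Of the tRNA synthetase genes, CARS, WARS, SARS, GARS and NARS rose together at 6 h by 0.90 to 1.30 on the log2 scale, while MARS and EPRS were not called and AARS and the tRNA exporter XPOT were lower. WARS (chr14:100333788-100376805), for tryptophan, read 61.8, 62.8 and 60.9 CPM untreated, 146, 151 and 146 at 6 h and 102, 93.9 and 89.7 at 24 h. The groups did not overlap, and its log2 fold change was 1.25 ± 0.07 at 6 h (adjusted p = 6.4e-14) and 0.62 ± 0.07 at 24 h (adjusted p = 3.38e-08). SARS, for serine, read 154, 167 and 163 CPM untreated, 368, 383 and 372 at 6 h and 213, 231 and 248 at 24 h, with log2 fold changes of 1.21 ± 0.06 and 0.52 ± 0.05. CARS, for cysteine, read 29.1, 21.5 and 23.4 CPM untreated, 60.5, 61.4 and 59.7 at 6 h and 30.04, 28.8 and 39.6 at 24 h. Its 6 h libraries stood clear of the rest, and its log2 fold changes were 1.30 ± 0.13 and 0.41 ± 0.13; the later one lost its call without untreated EWS-FLI1 replicate 2 (0.30), untreated EWS-FLI1 replicate 3 (0.35) or 24 h replicate 3 (0.25). GARS, for glycine, changed by 0.93 ± 0.05 and 0.28 ± 0.05. AARS, for alanine, was -0.18 ± 0.06 at 6 h and 0.18 ± 0.06 at 24 h. The first was not called without 6 h replicate 3 (-0.15), and the second was not called without untreated EWS-FLI1 replicate 1 or 3 (0.14 and 0.16) or 24 h replicate 1 or 2 (0.12 and 0.14). XPOT was -0.50 ± 0.06 at 6 h and -0.19 ± 0.06 at 24 h, and with transcript length offsets the 6 h value was -0.26 and not called. At 24 h 7 of the 9 were higher and 1 lower.

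Members were also read by the letters in their promoter windows. At 6 h of LY2835219 against untreated cells, the 13 members with TGATGNAA in the window had a median log2 fold change of 0.66 with 10 called higher and 1 lower, and the 22 with a window lacking it had a median log2 fold change of 0.80 with 15 called higher and 4 lower. At 24 h these were a median log2 fold change of 0.18 with 6 called higher and 4 lower, and a median log2 fold change of 0.16 with 11 called higher and 7 lower. In EWS(YS37)-FLI1 against EWS-FLI1 cells they were a median log2 fold change of 0.41 with 12 called higher and 0 lower, and a median log2 fold change of 0.39 with 16 called higher and 2 lower. GARS and AARS, both printed above with a match on the reverse strand, were 0.93 ± 0.05 and -0.18 ± 0.06 at 6 h. PPP1R15A, without TGATGNAA in its window, had the highest log2 fold change of the 35 at 6 h. A match is a description of the letters in this window, and elements outside it were not searched.

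**Figure D3:**
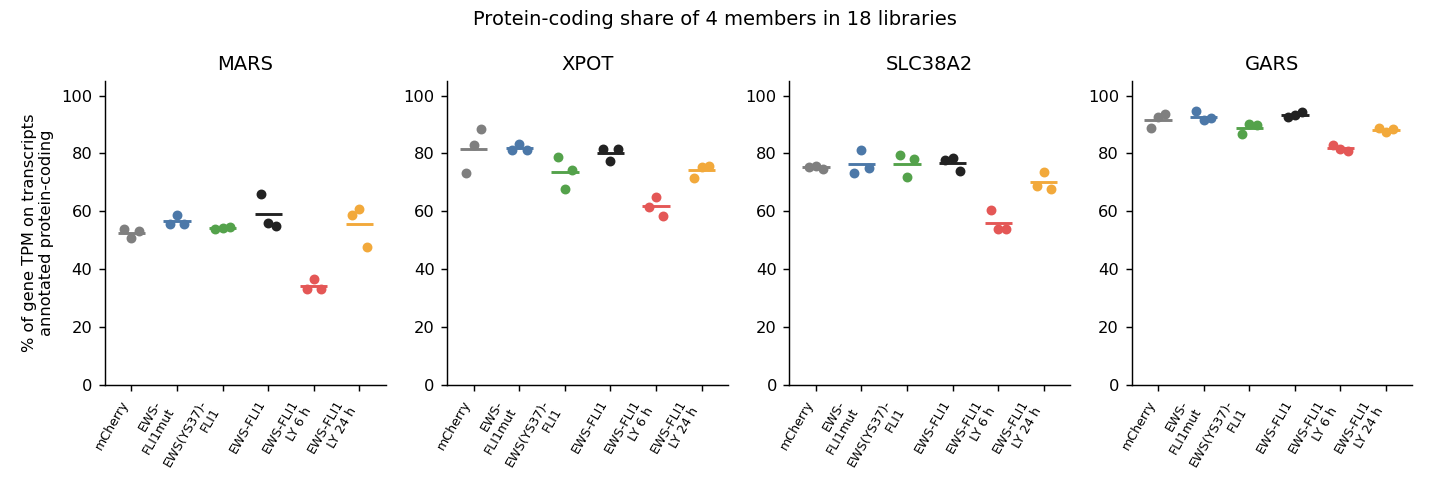
Percent of a gene's TPM that lies on protein-coding transcripts (vertical axis) for MARS, XPOT, SLC38A2 and GARS in the 6 groups; points are libraries and short lines are means of 3. All 3 libraries of 6 h LY2835219 lie below all 3 untreated EWS-FLI1 libraries in each gene. The same held for 9 of the 27 members compared and for 23.5% of all genes compared.

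At 6 h the share of TPM on protein-coding transcripts was lower without overlap of libraries in 33.3% of the members compared. The same held for 23.5% of all genes compared. The median difference was -2.98 points in the members and -1.76 points in all genes. Where a member has both protein-coding and other annotated transcripts and a mean of at least 5 TPM, the percent of its TPM on protein-coding transcripts was compared library by library. It was lower at 6 h in all 3 libraries, without overlap, for 9 of 27 members, and higher for 1; 23.5% of 8096 genes were lower in this way and 7.47% higher. The 9 were AARS, EPRS, GARS, MARS, NARS, SARS, SLC38A2, SLC7A11 and XPOT. In MARS, for methionine, the percent was 65.9, 56.0 and 55.1 in the untreated libraries, 33.2, 36.8 and 33.1 at 6 h and 58.7, 60.7 and 47.7 at 24 h. Its protein-coding transcripts read 103, 107 and 100.3 TPM untreated and 67.2, 67.6 and 63.3 TPM at 6 h. TPM carry no TMM scaling, so these levels are not on the scale of the log2 fold changes. Its gene-level log2 fold change on TMM-scaled counts was 0.04 ± 0.06. With transcript length offsets that value was 0.43 (adjusted p = 0.000101), and without scaling factors it was -0.20. In GARS the percent was 92.6, 93.2 and 94.4 untreated and 82.8, 81.5 and 80.9 at 6 h. In XPOT it was 81.6, 77.4 and 81.4 untreated and 61.7, 65.1 and 58.5 at 6 h, and in SLC38A2 77.9, 78.5 and 74.1 and 60.5, 53.8 and 53.9. These shares are kallisto's division of reads among overlapping transcripts, and no test was made on them. At 24 h, 8 of 28 members were lower without overlap and 1 was higher, with 13.2% and 4.6% of 8700 genes.

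Genes around the programme were read from 10 further lists. Among all genes tested, 64.9% were called at 6 h, 31.6% higher and 33.3% lower. The eIF2 kinases and eIF2 and eIF2B subunits had 8 of 16 higher and 6 lower (median 0.19) called at 6 h. EIF2B2 rose by 1.38 ± 0.06 and EIF2S1, the subunit that is phosphorylated, by 0.92 ± 0.07. Other cytosolic synthetase genes had 10 of 15 higher and 3 lower (median 0.22) at 6 h, with YARS at 0.91 ± 0.06 and AIMP1 at 0.90 ± 0.08. Their mitochondrial counterparts had 5 of 17 higher and 6 lower (median 0.10), among them TARS2 at -2.28 ± 0.10 and MARS2 at 1.69 ± 0.18. Further reported ATF4 targets had 5 of 14 higher and 5 lower (median -0.16) at 6 h, with KLHL24 at -2.19 ± 0.13. Amino acid transporters outside the members had 1 of 13 higher and 9 lower (median -0.50), with SLC1A1 at -2.71 ± 0.43 and SLC1A3 at -2.26 ± 0.10, and other one-carbon and amino acid enzymes had 1 of 12 higher and 7 lower (median -0.42), with SHMT1 at -1.47 ± 0.09 and GLUL at -1.14 ± 0.41.

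Endoplasmic reticulum chaperones and other unfolded protein response genes were mostly higher at 6 h and mostly lower at 24 h. Among all genes tested, 31.6% were called higher and 33.3% lower at 6 h, and 23.3% and 24.6% at 24 h. Set against 6 h, 32.6% of all genes were called higher at 24 h and 30.3% lower. At 6 h the list had 10 of 12 higher and 0 lower (median 0.35) called, and at 24 h 1 of 12 higher and 10 lower (median -0.69); against 6 h, the 24 h libraries had 0 of 12 higher and 10 lower (median -1.16). HERPUD1 was 1.00 ± 0.09 at 6 h and -0.89 ± 0.09 at 24 h, and HSPA5, which encodes the chaperone BiP, was 0.87 ± 0.05 and -0.91 ± 0.05. The p53 targets had 9 of 9 higher and 0 lower (median 1.59) at 6 h and 9 of 9 higher and 0 lower (median 0.94) at 24 h; FAS rose by 2.38 ± 0.16 and 1.51 ± 0.16, and PLK3 by 2.15 ± 0.08 and 0.65 ± 0.08. GDF15 and SESN2 are also reported targets of p53. NRF2 targets had 6 of 7 higher and 1 lower (median 1.01) at 6 h, led by HMOX1 at 2.57 ± 0.13, and 2 of 7 higher and 4 lower (median -0.29) at 24 h. Hypoxia genes had 0 of 7 higher and 4 lower (median -0.68) at 6 h, with EGLN3 at -3.04 ± 0.31.

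Among the untreated lines, EWS-FLI1 and EWS-FLI1mut cells had lower levels of many members than mCherry cells, and EWS(YS37)-FLI1 cells had higher levels of most. In EWS-FLI1 cells 17 of 42 members were lower and 4 higher than in mCherry cells, with a median log2 fold change of -0.18; among all genes tested 21.1% were called, 11.1% higher and 9.95% lower. In EWS-FLI1mut cells 13 were lower and 2 higher, with a median of -0.16; among all genes tested 7.15% were called, 3.53% higher and 3.62% lower. In EWS(YS37)-FLI1 cells 25 were higher and 2 lower, with a median of 0.27; among all genes tested 21.7% were called, 11.5% higher and 10.2% lower. The median over all genes was -0.02 for EWS-FLI1 and rounded to 0.00 for the other 2 lines. The 3 comparisons share the same mCherry libraries. The EWS-FLI1mut count fell to 8 without mCherry replicate 1 or any 1 of the EWS-FLI1mut replicates. With transcript length offsets the members called were 13 for EWS-FLI1, 7 for EWS-FLI1mut and 19 for EWS(YS37)-FLI1, and with limma on log2(TPM + 1) they were 13, 3 and 17. Over single libraries the summed osteoblast markers ran from 532 to 594 TPM in mCherry, 821 to 893 in EWS-FLI1, 553 to 700.0 in EWS-FLI1mut and 288 to 396 in EWS(YS37)-FLI1 cells. Summed histone genes ran from 1273 to 1368, 1369 to 1668, 1471 to 1644 and 1034 to 1056 TPM in the same order, and their part in the members' levels was not tested.

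**Figure D4:**
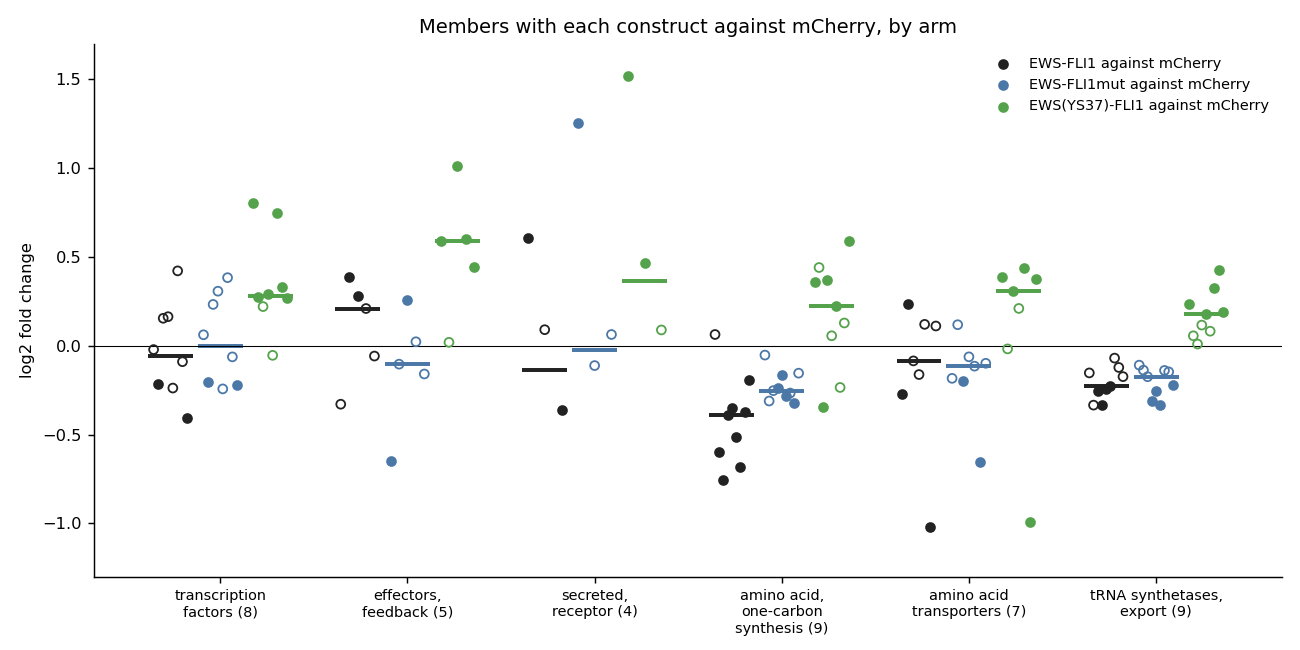
Log2 fold change of each member (points, vertical axis) by arm (horizontal axis) in EWS-FLI1, EWS-FLI1mut and EWS(YS37)-FLI1 cells against mCherry cells. Filled points are called, open points are not, and short horizontal lines are arm medians. STC2 is left out of the points, but counted in its arm's median. The synthesis arm has a median of -0.39 in EWS-FLI1 cells and 0.22 in EWS(YS37)-FLI1 cells.

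In EWS-FLI1 cells the most lower calls were in the synthesis arm, 8 of 9 of which were lower with a median of -0.39; the tRNA charging arm had 4 of 9 lower, and the transcription factors 2 of 8. ASNS read 146, 129 and 121 CPM in mCherry libraries, 69.2, 85.6 and 78.9 in EWS-FLI1, 113, 112 and 107 in EWS-FLI1mut and 100.2, 114 and 97.1 in EWS(YS37)-FLI1. The EWS-FLI1 libraries were the lowest of the 4 lines, with a log2 fold change of -0.76 ± 0.08 (adjusted p = 4.68e-07), while EWS(YS37)-FLI1 cells stood at -0.34 ± 0.08, a call lost with length offsets (-0.32). SLC7A11 was lower in all 3 lines: it read 149, 165 and 148 CPM in mCherry, 80.4, 77.9 and 69.5 in EWS-FLI1, 94.6, 106 and 92.3 in EWS-FLI1mut and 73.8, 82.7 and 75.6 in EWS(YS37)-FLI1. No library of a fusion line reached an mCherry library, and the log2 fold change in EWS-FLI1mut cells was -0.66 ± 0.08 (adjusted p = 2.25e-05). ATF4 read 612, 570.2 and 597 CPM in mCherry, 505, 517 and 521 in EWS-FLI1mut and 677, 736 and 739 in EWS(YS37)-FLI1. It was -0.22 ± 0.05 in EWS-FLI1 and -0.21 ± 0.05 in EWS-FLI1mut cells, and 0.27 ± 0.05 in EWS(YS37)-FLI1 cells (adjusted p = 0.00031). The EWS-FLI1mut value was not called without EWS-FLI1mut replicate 1 (-0.20) or mCherry replicate 1 (-0.18). DDIT3 read 5.48, 6.94 and 5.07 CPM in mCherry, 8.45, 5.41 and 8.90 in EWS-FLI1mut and 9.83, 8.74 and 10.7 in EWS(YS37)-FLI1. It was called higher in the last (0.75 ± 0.16) and not in EWS-FLI1 cells (0.42 ± 0.16).

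GDF15 and PPP1R15A were called higher than in mCherry cells in all 3 fusion lines and DDIT4 in EWS-FLI1 cells, while CHAC1 was lower in EWS-FLI1mut and higher in EWS(YS37)-FLI1 cells. GDF15 read 3.16, 1.71 and 2.40 CPM in mCherry, 3.02, 3.67 and 4.51 in EWS-FLI1, 6.95, 5.82 and 4.76 in EWS-FLI1mut and 7.45, 6.32 and 7.28 in EWS(YS37)-FLI1. EWS-FLI1 overlapped mCherry and the other 2 lines did not; its log2 fold change in EWS-FLI1 cells was 0.61 ± 0.21, not called without EWS-FLI1 replicate 2 (0.63), EWS-FLI1 replicate 3 (0.47), mCherry replicate 2 (0.44) or mCherry replicate 3 (0.61). DDIT4 read 61.2, 59.8 and 63.2 CPM in mCherry, 62.7, 92.97 and 85.4 in EWS-FLI1, 52.5, 57.2 and 61.8 in EWS-FLI1mut and 70.1, 56.8 and 59.9 in EWS(YS37)-FLI1. It was higher in EWS-FLI1 cells by 0.39 ± 0.11, and without EWS-FLI1 replicate 2, the highest of them, by 0.28 and not called. PPP1R15A read 28.0, 26.9 and 26.6 CPM in mCherry, 31.9, 29.8 and 35.7 in EWS-FLI1mut and 57.5, 53.7 and 53.5 in EWS(YS37)-FLI1. EWS(YS37)-FLI1 libraries stood well above those of the other lines. The EWS-FLI1mut difference, 0.26 ± 0.08, was not called without EWS-FLI1mut replicate 1 or 3 (0.27 and 0.18) or without any mCherry replicate (0.28, 0.24 and 0.24). CHAC1 read 12.5, 8.10 and 7.47 CPM in mCherry, 6.65, 4.90 and 6.395 in EWS-FLI1mut and 13.8, 15.4 and 13.2 in EWS(YS37)-FLI1. Its difference in EWS-FLI1mut cells, -0.65 ± 0.18, was not called without mCherry replicate 1 (-0.38) or without EWS-FLI1mut replicate 1, 2 or 3 (-0.74, -0.53 and -0.70). In EWS(YS37)-FLI1 cells CHAC1 was 0.59 ± 0.17, not called without mCherry replicate 2 or 3 (0.50 and 0.45) or EWS(YS37)-FLI1 replicate 2 (0.52).

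Set against EWS-FLI1 itself, EWS(YS37)-FLI1 cells were higher for 34 of 42 members and lower for 2, with a median log2 fold change of 0.41 against 0.02 over all genes; among all genes tested 31.1% were called, 16.3% higher and 14.8% lower. All 9 synthesis genes and all 9 tRNA charging genes were called higher, with medians of 0.50 and 0.39. The transcription factors had 4 of 8 higher, the effectors 4 of 5 higher and 1 lower, the secreted and receptor genes 3 of 4 higher, and the transporters 5 of 7 higher and 1 lower. Transcript length offsets left 26 higher and 1 lower, and limma on log2(TPM + 1) 22 and 2. Construct messenger RNA differed too, with FLI1 higher by 2.04 ± 0.09 on the log2 scale. Of the markers given above, COL1A1 and RUNX2 were called lower among 4 tested, as were 5 of the 8 histone genes, while EPCAM was lower (-0.57 ± 0.21) and PECAM1 higher (0.77 ± 0.29). The part of any of these in the members' levels was not tested.

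The genes that differed most in each arm were read library by library. ATF3 read 11.1, 13.0 and 12.4 CPM in EWS-FLI1 and 16.6, 25.2 and 22.9 in EWS(YS37)-FLI1, a log2 fold change of 0.82 ± 0.14 (adjusted p = 5.73e-05). ATF4, given above, was higher in every EWS(YS37)-FLI1 library than in any EWS-FLI1 library, by 0.49 ± 0.05 (adjusted p = 9.02e-08). NUPR1 read 54.6, 57.8 and 58.6 in EWS(YS37)-FLI1 and was higher by 0.68 ± 0.07. DDIT3 was 0.32 ± 0.16 and not called. Among the effectors, CHAC1 at 5.98, 8.08 and 8.38 CPM in EWS-FLI1 libraries was below all EWS(YS37)-FLI1 libraries (0.92 ± 0.18), as was PPP1R15A (0.73 ± 0.07). DDIT4 alone among the effectors was lower, by 0.37 ± 0.11, and the call rests on EWS-FLI1 replicate 2, without which it was -0.26. GDF15 was higher by 0.91 ± 0.19 and VLDLR, at 20.6, 22.1 and 19.3 CPM in EWS-FLI1 and 27.1, 28.7 and 28.96 in EWS(YS37)-FLI1, by 0.45 ± 0.09; neither was called with length offsets (0.60 and 0.25).

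In the synthesis arm ALDH1L2 read 8.13, 10.7 and 7.47 CPM in EWS-FLI1 and 18.4, 17.9 and 17.6 in EWS(YS37)-FLI1, a log2 fold change of 1.04 ± 0.16 (adjusted p = 3.36e-05). SHMT2 read 268, 272 and 298 CPM in EWS(YS37)-FLI1 and was higher by 0.79 ± 0.05, and MTHFD2 and PSAT1 were higher by 0.76 ± 0.07 and 0.73 ± 0.07. SHMT2 and MTHFD2 act in mitochondrial folate metabolism, and PSAT1 in serine synthesis. SLC1A5 read 219.6, 231 and 219 CPM in EWS-FLI1 and 351, 345 and 365 in EWS(YS37)-FLI1, with a log2 fold change of 0.66 ± 0.06. SLC3A2 read 288, 267 and 283 CPM in EWS(YS37)-FLI1 (0.39 ± 0.06), and SLC38A2, which was lower at both times of LY2835219, was lower here too (-0.25 ± 0.06). SLC7A11 was 0.03 ± 0.09 and not called. WARS read 91.0, 89.5 and 91.1 CPM and GARS 335, 359 and 343 CPM in EWS(YS37)-FLI1. GARS had stood at 246, 259 and 256 CPM in EWS-FLI1 cells, and the log2 fold changes were 0.55 ± 0.07 and 0.45 ± 0.05. SLC6A9 and CARS lost their calls without single libraries: SLC6A9 (0.37 ± 0.13) without any 1 EWS-FLI1 replicate (0.37, 0.37 and 0.35) or EWS(YS37)-FLI1 replicate 1 or 2 (0.28 and 0.38), and CARS (0.39 ± 0.13) without EWS-FLI1 replicate 2 or 3 (0.29 and 0.34) or EWS(YS37)-FLI1 replicate 1 or 3 (0.35 and 0.31). SLC7A5 (0.27 ± 0.07) was not called without EWS-FLI1 replicate 3 (0.22).

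Against EWS-FLI1mut, EWS(YS37)-FLI1 cells had 28 members higher and 1 lower, with a median of 0.43 against -0.01; among all genes tested 27.2% were called, 14.5% higher and 12.7% lower. CHAC1 (1.24 ± 0.18), PPP1R15A (0.76 ± 0.07), SHMT2 (0.75 ± 0.05) and ALDH1L2 (0.75 ± 0.16) had the largest log2 fold changes among the members called, and SLC7A11 was lower (-0.34 ± 0.08). Between EWS-FLI1 and EWS-FLI1mut cells, 2 members were higher in EWS-FLI1 and 7 lower, with a median of -0.02; among all genes tested 16.3% were called, 8.78% higher and 7.51% lower. DDIT4 was higher in EWS-FLI1 (0.49 ± 0.11) and GDF15 lower (-0.65 ± 0.19). The GDF15 value was not called without EWS-FLI1 replicate 1 or 2 (-0.51 and -0.62) or EWS-FLI1mut replicate 1 (-0.49). ASNS (-0.51 ± 0.08), PSPH (-0.42 ± 0.10), PSAT1 (-0.23 ± 0.07) and PHGDH (-0.18 ± 0.05) were lower in EWS-FLI1, as were VLDLR (-0.43 ± 0.09) and SLC7A11 (-0.36 ± 0.08). PSAT1 was not called without EWS-FLI1 replicate 1 or 3 (-0.17 and -0.22) or any 1 EWS-FLI1mut replicate (-0.20, -0.23 and -0.25), and PHGDH was not called without EWS-FLI1 replicate 1 (-0.14) or EWS-FLI1mut replicate 1 (-0.16). Without EWS-FLI1 replicate 1 the count fell from 9 to 5 members.

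**Figure D5:**
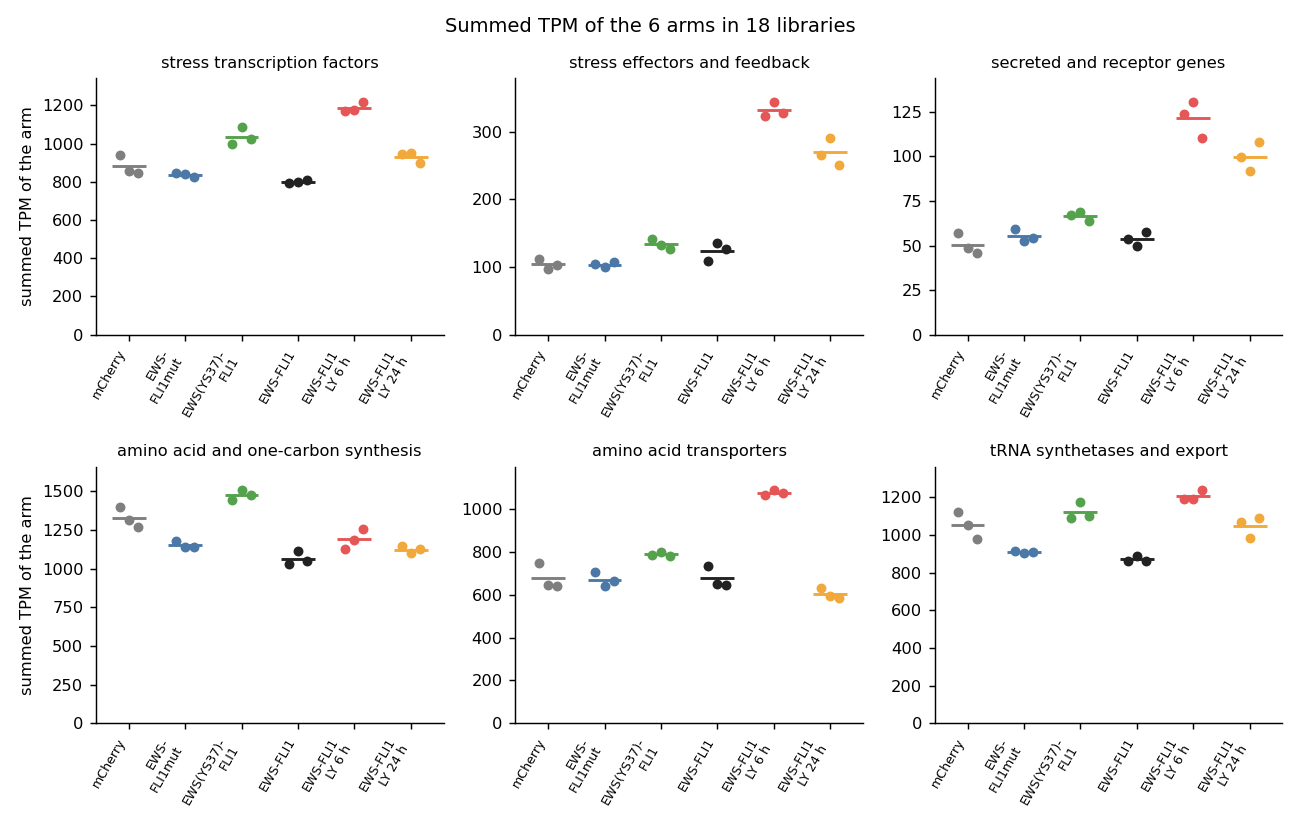
Summed TPM of each arm (vertical axes, linear and starting at 0) in the 6 groups; points are libraries and short lines are means of 3. The synthesis arm is highest in EWS(YS37)-FLI1 cells, at 1472 ± 32.5 TPM, and the other 5 arms are highest at 6 h of LY2835219.

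In summed levels, the synthesis arm was highest in EWS(YS37)-FLI1 cells and the effector arm at 6 h of LY2835219. The synthesis genes together held 1328 ± 66.8 TPM in mCherry, 1065 ± 45.2 in EWS-FLI1, 1152 ± 24.1 in EWS-FLI1mut and 1472 ± 32.5 in EWS(YS37)-FLI1 cells, and 1189 ± 64.6 at 6 h and 1122 ± 22.4 at 24 h of LY2835219 (SD, n = 3). The effectors held 104 ± 7.30, 124 ± 13.1, 104 ± 3.73 and 134 ± 7.47 TPM in the same 4 lines, and 332 ± 11.3 and 269.8 ± 20.3 under LY2835219. The transporters held 788 ± 9.80 TPM in EWS(YS37)-FLI1 cells, 1077 ± 9.90 at 6 h and 604 ± 25.1 at 24 h, and the tRNA charging genes 1122 ± 47.3, 1207 ± 26.6 and 1047 ± 56.5. These sums are descriptions and weigh abundant genes such as ATF4 and PHGDH most.

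The further lists in the constructs were read in the same way. Among all genes tested, 16.3% were called higher and 14.8% lower in EWS(YS37)-FLI1 against EWS-FLI1 cells. For EWS-FLI1 against mCherry cells these shares were 11.1% and 9.95%. EWS(YS37)-FLI1 cells against EWS-FLI1 had 10 of 14 higher and 1 lower (median 0.50) of the other reported ATF4 targets, with EIF4EBP1, a translation repressor, at 0.93 ± 0.07 and KLHL24 at -0.95 ± 0.12. Other cytosolic synthetase genes had 10 of 15 higher and 1 lower (median 0.26), with AIMP2 at 0.69 ± 0.05 and YARS at 0.58 ± 0.06, and mitochondrial ones 7 of 17 higher and 0 lower (median 0.22). Amino acid transporters outside the members had 1 of 13 higher and 4 lower (median -0.10), with SLC1A1 at -1.45 ± 0.37 and SLC16A10 at -1.20 ± 0.22. Endoplasmic reticulum chaperones and other unfolded protein response genes had 1 of 12 higher and 2 lower (median 0.10), PDIA4 among the latter at -0.55 ± 0.14. NRF2 targets had 5 of 7 higher and 0 lower (median 0.26), with TXNRD1 at 0.89 ± 0.08. p53 targets had 4 of 9 higher and 1 lower (median 0.15), with FAS at 0.90 ± 0.16. The eIF2 kinase and subunit list had 6 of 16 higher and 2 lower (median 0.05), the other one-carbon and amino acid enzymes 5 of 12 higher and 2 lower (median 0.19) and the hypoxia genes 3 of 7 higher and 2 lower (median 0.00). In EWS-FLI1 against mCherry cells the other reported ATF4 targets had 1 of 14 higher and 4 lower (median -0.23), with CBS at -0.82 ± 0.07 and EIF4EBP1 at -0.48 ± 0.07.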

How the data were processed

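PolyA RNA from 18 U2OS libraries, 3 in each of 6 groups, was quantified by the authors with kallisto 0.46 after CASAVA, with hg38 as the build, per the submitters' processing notes. Each deposited table holds, per the file headers, estimated counts per transcript (not normalized), TPM, and the effective length of each transcript in bases, which is no expression level but a unit other than those. The transcript set, the strand setting and which library used which of the 2 kits named are not given in the sources used here.

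Transcripts were assigned to genes by Ensembl identifier with GENCODE 29, which matched 169797 of 188753; between 2.59% and 2.74% of a library's counts were unmatched and left out. Gene sums of estimated counts were rounded to whole numbers, and the deposited TPM were summed likewise. Total estimated counts of 16261034 to 20270637 per library set the precision of low genes.

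The test was that of edgeR 4.0.16 (R 4.3.3), with TMM scaling, a filterByExpr filter that used the groups, and a single quasi-likelihood model over the 18 libraries (16786 genes, 12 residual degrees of freedom, biological coefficient of variation 8.77%), with 9 contrasts. Benjamini-Hochberg adjustment ran over the whole table in each contrast, and genes under an adjusted p of 0.05 count as called. Standard errors were derived by dividing the size of the log2 fold change by the root of its F statistic, and they reflect a spread pooled over the 6 groups. The script was tested on simulated data in which few genes changed, as many up as down, in a single group. That setting does not test the choice of scaling where most genes are called, as at 6 h. DESeq2 1.42.0, limma 3.58.1, other scaling factors, no filter, length offsets (which adjust each gene for its average effective transcript length in each library), a replicate block, a fit of the compared groups alone and leaving out each library were alternatives.

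The members, arms and further lists were chosen with earlier results of these data known, so no list was tested and counts are set beside those over all genes. By rule, library values are given for the 2 called members of each arm with the largest absolute log2 fold change at 6 h, at 24 h and in EWS(YS37)-FLI1 against EWS-FLI1, for ATF4 and DDIT3, and for the 2 members rising and the 2 falling most in each construct against mCherry; up to 2 called genes of each further list may be named. Promoter windows came from RefSeq (GRCh38.p14).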

Additional observations from a re-analysis of the deposited data

Results flagged for a closer look

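Members are listed here when 2 groups were called in opposite directions against the same reference and also differed when set against each other by the edgeR quasi-likelihood test, with an adjusted p under 0.05 over all genes tested. Values in parentheses are log2 fold changes against the shared reference, in the order named, and then the direct difference with its standard error. Groups of 3 libraries are too small for a search for single outlying libraries.

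Against untreated EWS-FLI1 cells, 8 members were called in opposite directions at 6 h and at 24 h of LY2835219. They were ATF3 (0.46 and -0.38, difference -0.85 ± 0.14), CEBPG (0.66 and -0.40, difference -1.06 ± 0.10), PHGDH (0.16 and -0.14, difference -0.29 ± 0.05), MTHFD2 (0.36 and -0.39, difference -0.75 ± 0.07), ALDH18A1 (0.29 and -0.24, difference -0.53 ± 0.07), SLC7A5 (1.34 and -0.91, difference -2.24 ± 0.08), SLC7A1 (0.65 and -0.41, difference -1.06 ± 0.07) and AARS (-0.18 and 0.18, difference 0.36 ± 0.06). AARS was the 1 of these that was lower at 6 h and higher at 24 h, and SLC7A5 had the largest direct difference.

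Against mCherry cells, 7 members were lower in EWS-FLI1 and higher in EWS(YS37)-FLI1 cells: ATF4 (-0.22 and 0.27, difference 0.49 ± 0.05), NUPR1 (-0.41 and 0.27, difference 0.68 ± 0.07), PSAT1 (-0.51 and 0.22, difference 0.73 ± 0.07), SHMT2 (-0.19 and 0.59, difference 0.79 ± 0.05), MTHFD2 (-0.39 and 0.37, difference 0.76 ± 0.07), SLC1A5 (-0.27 and 0.39, difference 0.66 ± 0.06) and MARS (-0.24 and 0.18, difference 0.42 ± 0.06). They include ATF4 itself, PSAT1 of serine synthesis, and SHMT2 and MTHFD2 of mitochondrial folate metabolism.

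Likewise, 8 members were lower in EWS-FLI1mut and higher in EWS(YS37)-FLI1 cells than in mCherry cells. They were ATF4 (-0.21 and 0.27, difference 0.48 ± 0.05), NUPR1 (-0.22 and 0.27, difference 0.49 ± 0.07), CHAC1 (-0.65 and 0.59, difference 1.24 ± 0.18), PSAT1 (-0.28 and 0.22, difference 0.50 ± 0.07), MTHFD2 (-0.24 and 0.37, difference 0.61 ± 0.07), SLC3A2 (-0.20 and 0.31, difference 0.50 ± 0.06), MARS (-0.26 and 0.18, difference 0.44 ± 0.06) and XPOT (-0.22 and 0.19, difference 0.41 ± 0.06). ATF4, NUPR1, PSAT1, MTHFD2 and MARS met this in both construct comparisons, which share the mCherry and EWS(YS37)-FLI1 libraries. All 8 lost their EWS-FLI1mut call when 1 library of either group was left out: ATF4 at -0.20 to -0.18, NUPR1 at -0.26 to -0.19, CHAC1 at -0.74 to -0.38, PSAT1 at -0.28 to -0.21, MTHFD2 at -0.28 to -0.18, SLC3A2 at -0.21 to -0.16, MARS at -0.24 to -0.19 and XPOT at -0.25 to -0.17. Lost in the same way were the EWS(YS37)-FLI1 calls of CHAC1 (0.45 to 0.52), PSAT1 (0.17 to 0.24), MARS (0.15 to 0.16) and XPOT (0.14 to 0.19), the EWS-FLI1 call of SHMT2 (-0.17 to -0.16), the 24 h calls of ATF3 (-0.40 to -0.35), PHGDH (-0.13 to -0.11) and AARS (0.12 to 0.16) and the 6 h calls of PHGDH (0.11) and AARS (-0.15). The range in each case is over the libraries whose omission ended the call.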

How the results depend on the processing

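The members called changed by over 1.5 times only under fits that bring in transcript length, and when single libraries were left out of 2 construct comparisons. With transcript length offsets 13 members were called in EWS-FLI1 against mCherry (21 as reported), 7 in EWS-FLI1mut against mCherry (15) and 2 in EWS-FLI1 against EWS-FLI1mut (9). With limma on log2(TPM + 1) these were 13, 3 and 1, and EWS(YS37)-FLI1 against mCherry had 17 (27). Leaving out 1 library at a time gave 16 to 21 members for EWS-FLI1 against mCherry, 8 to 12 members for EWS-FLI1mut against mCherry, 22 to 30 members for EWS(YS37)-FLI1 against mCherry, 5 to 9 members for EWS-FLI1 against EWS-FLI1mut, 33 to 35 members for EWS(YS37)-FLI1 against EWS-FLI1, 28 to 30 members for EWS(YS37)-FLI1 against EWS-FLI1mut, 35 to 36 members for LY2835219 6 h against untreated cells, 29 to 32 members for LY2835219 24 h against untreated cells and 36 to 37 members for 24 h against 6 h. Of the member values called as reported or under the alternative, 9 changed sign, in JDP2, PHGDH, MARS, MTHFD2 and ALDH18A1. A further 120 values that were called in neither changed sign as well. Without scaling factors JDP2, PHGDH and MARS at 6 h were -0.19, -0.089 and -0.20, and MARS at 24 h against 6 h was 0.26. With limma on log2(TPM + 1), JDP2, PHGDH, MTHFD2 and ALDH18A1 at 6 h were -0.36, -0.28, -0.060 and -0.024, and PHGDH at 24 h against 6 h was 0.11. The members' median for EWS-FLI1 against EWS-FLI1mut, -0.02 as reported, changed sign without EWS-FLI1mut replicate 1 (0.031) and without EWS-FLI1 replicate 1 (0.00069). The cause was not tested.

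Over all genes, 3536 were called for EWS-FLI1 against mCherry, 1200 were called for EWS-FLI1mut against mCherry, 3645 were called for EWS(YS37)-FLI1 against mCherry, 2734 were called for EWS-FLI1 against EWS-FLI1mut, 5223 were called for EWS(YS37)-FLI1 against EWS-FLI1 and 4565 were called for EWS(YS37)-FLI1 against EWS-FLI1mut. With length offsets these were 1698, 360, 1964, 1262, 3001 and 2574, and with limma on log2(TPM + 1) 1679, 384, 1907, 1276, 2990 and 2735. EWS-FLI1mut against mCherry had 667 to 1012 with 1 library left out, and EWS(YS37)-FLI1 against EWS-FLI1 had 4245 to 4596. Calls over all genes thus also fell with fewer libraries in these comparisons. The share of higher calls among all calls moved with the scaling: from 48.7% to 32.2% without factors and 26.2% with limma on log2(TPM + 1) at 6 h, and from 51.8% to 70.4% and 70.5% at 24 h against 6 h. In the same order it moved from 49.3% to 64.1% and 77.3% for EWS-FLI1mut against mCherry, from 53.1% to 42.8% and 41.0% for EWS(YS37)-FLI1 against mCherry, from 53.9% to 39.3% and 42.1% for EWS-FLI1 against EWS-FLI1mut (64.8% with length offsets), and from 53.3% to 37.8% and 29.5% for EWS(YS37)-FLI1 against EWS-FLI1mut. With limma it was 37.9% at 24 h (from 48.7%) and 38.1% for EWS(YS37)-FLI1 against EWS-FLI1 (from 52.3%).

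The labels number the replicates 1 to 3 in every group. Over all genes tested, the deviations of same-numbered libraries were only weakly correlated. The 27 correlations ran from -0.0377 to 0.0621, and 12 pairs correlated best with their own number. Whether the members alone deviate together by replicate number was not tested. In the summed transporter TPM, replicate 1 was the highest library in mCherry, EWS-FLI1, EWS-FLI1mut and 24 h cells, but not in the other groups. With a replicate block the members called were 21, 15, 28, 11, 36, 30, 36, 34 and 37 in the 9 comparisons in the order of the single-library ranges above, and 371 member values kept their side of the threshold, 6 gained a call and 1 lost it. STC2 did not pass the filter in 4 of the fits of the 2 compared groups alone and has no value there. Depth limits low members: STC2 held at most 20 counts in any library, and no fold is given for it.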
